A study of Mus musculus with 6 samples.

Results

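Genes of iron and haem handling were followed in whole testes of AROM+ and wild-type (WT) mice. The 10 genes are Heph, Hmox1, Slc40a1, Fth1, Ftl1, Trf, Tfrc, Cp, Slc11a1 and Steap4, and the array carries 18 probes with these names among its 55681 non-control probes. All 10 names were found, among 18856 genes tested. AROM+ mice are transgenic animals with excess aromatase, which converts androgens to oestrogens, and WT mice were the controls. Both groups were male, 5 months old and on the C57BL/6 background, with 3 mice each and RNA of 1 testis on each one-colour (Cy3) Agilent array. The labels give neither the promoter nor the species of the transgene. The genes were chosen by measured values of this same contrast, the AROM+ minus WT log2 differences of these arrays. Their values are therefore a description and carry no test.

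Iron enters most cells bound to transferrin, which the transferrin receptor carries into endosomes, where STEAP enzymes reduce the released iron. Ferritin, a shell of heavy and light chains, stores it, and ferroportin exports it with the help of the copper oxidases hephaestin and ceruloplasmin. Macrophages take in much iron as haem from engulfed cells, open the haem ring with haem oxygenase and export the iron. In the testis, Sertoli cells secrete their own transferrin to supply germ cells behind the blood-testis barrier. Ferritin and transferrin receptor are also controlled after transcription by iron-regulatory proteins, which an array of messenger RNA sees only in part.

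Levels are given as log2 intensities relative to the 75th percentile of the same array, and differences are AROM+ minus WT on this log2 scale, with the standard error (SE) from limma. The processed intensity at that percentile ranged from 3698 to 5452, between 76.6% and 80.6% of spots were well above background, and 0 non-control spots were saturated. The median difference over all genes tested was −0.15. All 12 germ cell and all 11 Sertoli cell markers looked at were measured. Of 6 epididymal genes, Lcn5, Lcn8 and Adam7 were not well above background in either group. Crisp1, Ovch2 and Rnase10 were well above it on all 6 arrays, with Rnase10 at a mean of −0.27 in WT and −0.80 in AROM+. The 3 WT arrays shared one row of the slide and the 3 AROM+ arrays the other, so position on the slide cannot be told apart from genotype. A gene with several probes is represented by its brightest one unless a probe is named.

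By that measure all 10 genes had a positive difference, with a median of 1.31. In 9 of 10 the AROM+ values lay above all WT values, where 23.2% of all genes did so. The fit across all genes called 9 of the 10 higher (adjusted p under 0.05) and 0 lower, where 19.8% of all genes were called higher and 32.7% lower. The choice of the genes bears on these counts, and nothing is read from them. The sizes ran from 30.4-fold for Heph to 1.19-fold for Tfrc, and 6 of 10 genes were at least 2-fold higher. From largest to smallest difference the order was Heph, Slc11a1, Slc40a1, Steap4, Hmox1, Cp, Trf, Ftl1, Fth1 and Tfrc. The largest steps were from Heph to Slc11a1 (1.54) and from Steap4 to Hmox1 (1.20), and no step between neighbours was tested. Both steps shrank with the processing: with probes averaged Heph was at 3.69 and Slc11a1 at 3.39, and with normexp background correction Steap4 was at 1.58 and Hmox1 at 1.25. Steap4 was well above background on 2 of 3 WT arrays.

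**Figure D1:**
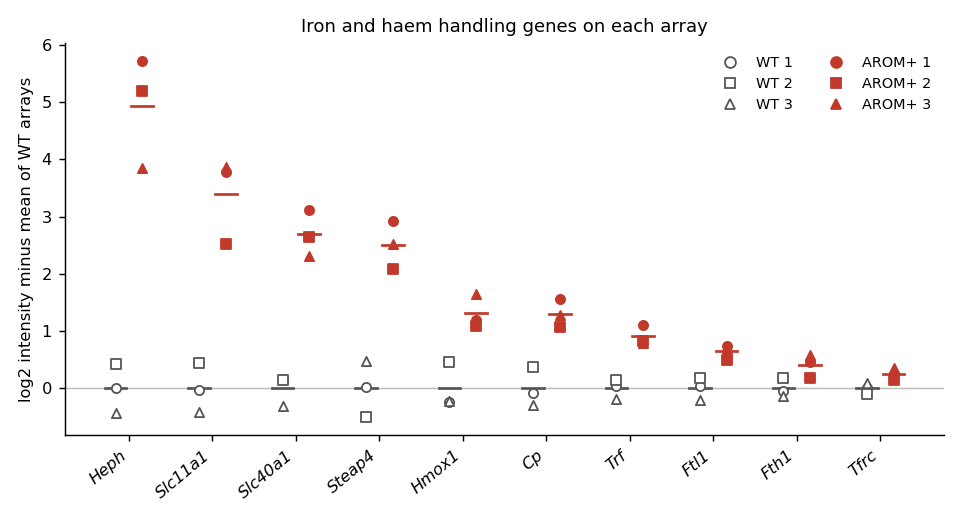
Log2 intensity of the brightest probe of each of the 10 genes on each array, minus the mean of its 3 WT arrays (vertical axis), in order of the difference. Open grey symbols are WT, filled red symbols AROM+, the shape marks the replicate number and the short lines are group means; Heph stands highest, with a mean of 4.92, and the AROM+ and WT points of Fth1 meet.

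Ferroportin, the cellular iron exporter encoded by Slc40a1, was measured by 1 probe. It read −2.77, −2.77 and −3.23 on the WT arrays and 0.20, −0.27 and −0.61 on the AROM+ arrays. The lowest AROM+ testis stood 2.16 above the highest WT testis, and the difference was 2.69 ± 0.23 (6.48-fold, n = 3 per group). Its probe holds AATAAA, the sequence of a polyadenylation signal, in capitals in the last 30 of its 60 bases (chr1:45965255-45965314, minus strand, NCBI37/mm9). Whether the sequence is used as a signal was not tested, here or in the probes below.
Slc40a1 A_51_P389988: cctttcaatatccctgagaagAATAAAgaa

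Hephaestin, a membrane-bound copper oxidase that readies exported iron for transferrin, had 3 probes, and they gave very different sizes. The brightest, A_55_P1994194, read −3.93, −3.51 and −4.36 in WT against 1.79, 1.27 and −0.09 in AROM+. In processed intensity these were 294, 325 and 207 units against 18870, 10711 and 4005 units. The AROM+ testes spread over 1.88 log2 units, with replicate 3 lowest, and that testis was still 3.42 above the highest WT value. The difference was 4.92 ± 0.48, and 0.0742% of all genes tested had a larger one. Heph was chosen with this difference known, so nothing is read from that share. The probe A_52_P498219 was not well above background on any WT array and was well above it on all 3 AROM+ arrays, where it read −3.05, −3.33 and −3.88. Its mean was −3.42 in AROM+ and −8.88 in WT. On the processed signal it was at least 19.2-fold higher in AROM+, with the lowest signal of any probe well above background on each array taken as the WT level. With normexp background correction its log2 difference was 2.23, which is below that bound, so the bound holds only for the processed signal. The probe A_55_P1994190 read −4.64, −4.25 and −4.46 in WT against −3.85, −3.65 and −3.79 in AROM+, a difference of 0.69 ± 0.13, also without overlap.

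The 3 Heph probes are shown by their last 30 bases because they disagree in size and lie apart in the gene. A_55_P1994190 and A_52_P498219 carry the same transcript accession in the files and start 759 bases apart. A_55_P1994194 starts 43147 bases further on and carries the accession of another transcript. So probes of 1 annotated transcript gave both a small and a large difference. In the order shown they lie at chrX:93725815-93725874, chrX:93726574-93726633 and chrX:93769721-93769780, plus strand, NCBI37/mm9.
Heph A_55_P1994190: ttacattcttgggctgggcaggtcacttaa
Heph A_52_P498219: tatactgtacattgagcatatttccctgcc
Heph A_55_P1994194: ttgagtgtcctctctatgtttcaaatagca

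Ceruloplasmin, the other copper oxidase of iron export, had 2 probes that the files assign to different transcripts. The brighter read 0.20, 0.66 and 0.00 in WT against 1.84, 1.37 and 1.56 in AROM+, a difference of 1.30 ± 0.20 (2.46-fold). The dimmer probe, further along the gene, read −5.34, −5.22 and −5.41 in WT against −4.12, −4.39 and −3.94 in AROM+, a difference of 1.17 ± 0.14. The groups did not overlap by either probe, and both probes gave about the same size. With normexp background correction, another way to remove background, the dim probe was at 0.70. A reading frame without a stop runs through both probes, so it does not set them apart. The brighter probe is shown in full (chr3:19889071-19889130, plus strand, NCBI37/mm9).
Cp A_55_P2111302: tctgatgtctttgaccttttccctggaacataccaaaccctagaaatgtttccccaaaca

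Haem oxygenase 1, the inducible enzyme that cleaves haem to biliverdin, iron and carbon monoxide, was read by 2 probes of Hmox1. The brighter read −1.37, −0.67 and −1.36 in WT against 0.06, −0.05 and 0.51 in AROM+. WT replicate 2 was the highest WT testis, and the groups lay 0.62 apart. The difference was 1.31 ± 0.23 (2.48-fold). The other probe read −3.12, −2.48 and −3.42 in WT against −1.85, −2.18 and −2.19 in AROM+, a difference of 0.93 ± 0.24, and its groups did not overlap either. The probes lie at chr8:77624207-77624266 and chr8:77620797-77620856 (plus strand, NCBI37/mm9). A reading frame without a stop runs through the second and not the first, but also through probes of other genes shown only in part. The second is shown in full.
Hmox1 A_55_P2029687: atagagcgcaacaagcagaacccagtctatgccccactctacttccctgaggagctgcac

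The ferritin genes showed small differences. Fth1, the heavy chain that oxidises iron as it enters the shell, read 3.72, 3.96 and 3.64 in WT against 4.23, 3.95 and 4.35 in AROM+. Replicate 2 of each group met, so the groups overlapped, and the difference was 0.40 ± 0.14 (1.32-fold). Fth1 was called in the fit over genes, but its probe was not called in the fit over probes. The gene was not called in 8 of 14 alternatives. Ftl1, the light chain that helps the iron core to form, read 3.44, 3.58 and 3.20 in WT against 4.15, 3.91 and 4.09 in AROM+ by its brightest probe, a difference of 0.64 ± 0.13. Its other probe read 2.72, 3.13 and 2.30 in WT against 3.88, 3.55 and 3.89 in AROM+, a difference of 1.06 ± 0.22. The groups did not overlap by either Ftl1 probe. With quantile normalization Fth1 was at 0.64 and Ftl1 at 0.89.

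Ferritin genes have processed copies in the mouse genome that resemble them closely, and the place of the brightest Ftl1 probe bears on this. The files put it on chromosome 17 (chr17:6131686-6131745, minus strand, NCBI37/mm9) and list a second transcript accession for it, while the other probe lies on chromosome 7 (chr7:52714014-52714495, minus strand). That second interval is 482 bases long for a probe of 60 bases, as when a probe crosses an intron. Signal of the chromosome 17 probe may be shared between Ftl1 and such copies, and ferritin values are uncertain to that extent. The chromosome 17 probe is shown by its last 30 bases, with the sequence AATAAA in capitals, and the other in full.
Ftl1 A_55_P1968245: aaaAATAAAgctttttgagacagcaaaaaa
Ftl1 A_55_P1983959: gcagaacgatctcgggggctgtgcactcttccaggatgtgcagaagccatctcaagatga

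Transferrin, the iron carrier that Sertoli cells secrete, had 2 probes of Trf. The brightest read 2.12, 2.22 and 1.89 in WT against 3.19, 2.90 and 2.87 in AROM+, a difference of 0.91 ± 0.13 (1.88-fold). The other read 1.42, 1.60 and 1.18 in WT against 3.43, 2.76 and 2.81 in AROM+, a difference of 1.60 ± 0.21 (3.03-fold). By each probe AROM+ replicate 1 was the highest testis, and the groups did not overlap. The probe with the smaller difference holds the sequence AATAAA (capitals, last 30 bases, chr9:103111207-103111266). The one with the larger is shown in full (chr9:103112826-103112885, both minus strand, NCBI37/mm9).
Trf A_55_P2037584: gagcacaaAATAAAaacgactgctgacttt
Trf A_55_P2037585: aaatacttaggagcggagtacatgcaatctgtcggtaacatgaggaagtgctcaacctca

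Of 11 Sertoli cell markers, a list without Trf, 3 (27.3%) were called higher and 0 lower, against 19.8% and 32.7% of all genes. The median difference of the 11 was 0.20. Sox9, a transcription factor of Sertoli cells, was at 0.20 ± 0.19 and Amh, anti-Müllerian hormone, at 0.11 ± 0.30, and neither was called (limma, adjusted p = 0.414 and 0.769). The called markers were Gata4, which rose by 0.93 ± 0.14, Fshr, the receptor for follicle-stimulating hormone, by 0.86 ± 0.27, and Gata1 by 0.57 ± 0.19 (adjusted p = 0.0041, 0.034 and 0.0435). The summed level of the list, in units of the array's 75th percentile, ran from 40.2 to 46.8 in WT and from 39.8 to 54.7 in AROM+. The part of Sertoli cell number in the Trf value was not tested.

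Tfrc, the transferrin receptor that dividing cells use to take up iron, had the smallest difference, and its 3 probes disagreed in sign. The brightest read −0.94, −1.04 and −0.85 in WT against −0.69, −0.80 and −0.59 in AROM+. The AROM+ values were above the WT values, by as little as 0.05, and the difference was 0.25 ± 0.10. A_65_P06446 read −3.70, −3.76 and −3.52 in WT against −3.97, −3.97 and −3.68 in AROM+, a difference of −0.21 ± 0.12. A_51_P167876 read −5.58, −5.67 and −5.53 in WT against −5.99, −5.37 and −5.63 in AROM+, a difference of −0.07 ± 0.16. By both of these the groups overlapped, and the mean of the 3 probes differed by −0.01. The probes are shown in the order of their start, at chr16:32620470-32620529, chr16:32624877-32625093 and chr16:32632255-32632314 (plus strand, NCBI37/mm9). The first and the last are given by their last 30 bases, and the middle one, whose interval is 217 bases long, in full.
Tfrc A_65_P06446: taagctggaactttcacagaatcaaaatgt
Tfrc A_51_P167876: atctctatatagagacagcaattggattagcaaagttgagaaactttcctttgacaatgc
Tfrc A_52_P228236: aaccatcattacgcatctaatcagttttgc

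Steap4, a metalloreductase that reduces iron and copper, had 1 dim probe (chr5:7981239-7981298, NCBI37/mm9). It read −6.44, −6.98 and −5.99 in WT against −3.55, −4.39 and −3.95 in AROM+. WT replicate 2 was the lowest testis, the groups lay 1.60 apart, and the difference was 2.51 ± 0.30 (5.68-fold). It was well above background on 2 of 3 WT arrays and on all 3 AROM+ arrays. With normexp background correction the difference was 1.58.

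Slc11a1, the transporter that moves metal ions out of the phagosomes of macrophages, stood second in the order. It read −2.89, −2.41 and −3.26 in WT against 0.92, −0.33 and 1.01 in AROM+, by 1 probe (chr1:74432161-74432220, NCBI37/mm9). AROM+ replicate 2 was the lowest of its group and still 2.08 above the highest WT testis. The difference was 3.39 ± 0.39 (10.5-fold).

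**Figure D2:**
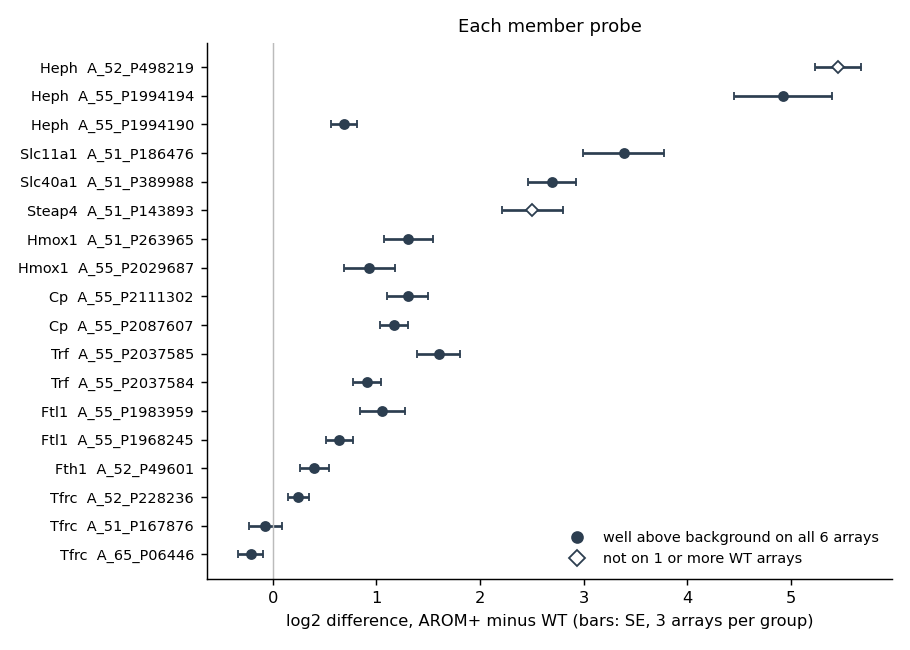
Log2 difference, AROM+ minus WT, of each of the 18 probes (points) with its SE from limma over 3 arrays per group (bars); open diamonds mark probes not well above background on 1 or more WT arrays. The Heph probes measured on all arrays lie at 0.69 and 4.92, the fitted point of A_52_P498219 is no measured size since no WT array was well above background, and both probes with a negative difference belong to Tfrc.

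By probe, 14 of 18 were called higher and 0 lower, where 14.0% of all kept probes were called higher and 30.4% lower, and again nothing is read from the count. All 18 passed the filter on dim probes, and 16 were well above background on all 6 arrays. Heph A_52_P498219 and the Steap4 probe passed only through the AROM+ arrays, where they read higher, and both are among the 14 called. The AROM+ testes did not rank alike over the genes. Replicate 1 was the highest AROM+ testis for 6 genes and replicate 3 for 4. Replicate 2 was the lowest for 7 genes and replicate 3 for Heph, Slc40a1 and Trf. Among the WT testes replicate 2 was highest for 7 genes and replicate 3 lowest for 7.

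Macrophage markers moved in the same testes. Of 12 markers 9 (75%) were called higher and 2 (16.7%) lower, against 19.8% and 32.7% of all genes. The median difference of the 12 was 1.23. Adgre1, a surface protein of mature macrophages, read −1.21, −0.76 and −1.24 in WT against 1.22, 0.48 and 0.82 in AROM+, and rose by 1.91 ± 0.22 (limma, adjusted p = 0.00273). Cd68, a lysosomal protein of macrophages, read 0.33, 1.02 and −0.02 in WT against 2.97, 2.50 and 3.06 in AROM+, and rose by 2.40 ± 0.28 (limma, adjusted p = 0.0028). Csf1r and Aif1 were the markers called lower, each by its brightest probe. Other probes of the markers were not compared, and whether each probe reports macrophages in whole testis was not tested. The summed level of the list ran from 47.5 to 61.7 in WT and from 63.6 to 76.2 in AROM+. Itgam, which was not called (−0.09 ± 0.16, adjusted p = 0.65), gave 39.9% of that sum. In WT Itgam (mean 4.67), Aif1 (4.08) and Csf1r (2.47) were the brightest of the list, and each had a negative difference. The sum is therefore weighted to markers that did not rise. In whole tissue more cells of a type and more RNA per cell cannot be told apart, and the part of macrophage number in the iron gene values was not tested.

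**Figure D3:**
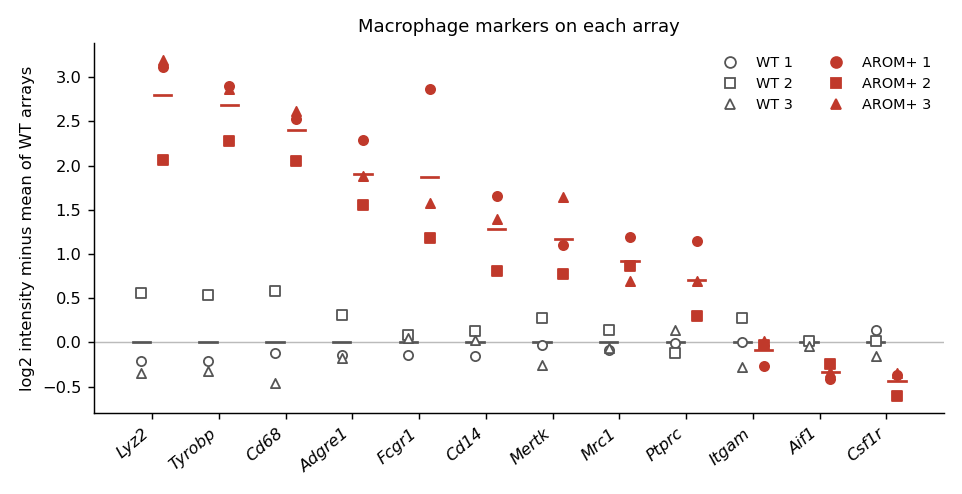
Log2 intensity of 12 macrophage markers on each array, minus the mean of the 3 WT arrays (vertical axis), in order of the difference. Open grey symbols are WT, filled red symbols AROM+, the shape marks the replicate number and lines are group means; Lyz2, Tyrobp and Cd68 stand highest, and Itgam, Aif1 and Csf1r have means below 0.

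Markers of other cells were measured as well, and their counts stand beside 19.8% of all genes called higher and 32.7% lower. Of 7 endothelial markers 6 were called higher and 1 lower, with a median difference of 1.44. Their summed level ran from 2.2 to 2.5 in WT and from 2.47 to 3.26 in AROM+, and 63.1% of it came from Kdr, the marker called lower (−0.39 ± 0.08). Of 7 Leydig cell markers 4 were called higher and 0 lower, with summed levels from 18.9 to 34.9 in WT and from 33.7 to 47.7 in AROM+. Among them Cyp11a1, the first enzyme of steroid synthesis, rose by 1.75 ± 0.37 (limma, adjusted p = 0.00998). Cyp17a1, which gave 34.1% of the sum, was at −0.42 ± 0.36, Star at −0.40 ± 0.62 and Hsd17b3 at −1.08 ± 0.78, and none of these 3 was called. Of 12 germ cell markers 1 was called higher and 7 lower, with summed levels from 199 to 272 in WT and from 170 to 178 in AROM+. None of 5 peritubular markers was called, with differences between 0.05 and 0.38 and a median of 0.28. Of 6 epididymal markers 3 were measured, of which 0 were called higher and 2 lower. Red cells hold haem, and 5 of 10 red cell markers were measured, of which 0 were called higher and 1 lower, with summed levels from 3.14 to 3.74 in WT and from 3.09 to 6.06 in AROM+. The β-globin gene Hbb-bs read −3.32, −2.27 and −2.15 in WT against −2.33, −1.99 and −0.52 in AROM+, and was not called (0.97 ± 0.52, adjusted p = 0.158). Hba-a1 had no probe of its own, and Epb42 and Rhag were not well above background. The part of these cells in the iron gene values was not tested.

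Beyond the 10 genes, 120 others of iron and haem biology were sorted by role, and 115 of them were measured. Of these, 37 (32.2%) were called higher and 26 (22.6%) lower, where 19.8% of all genes were called higher and 32.7% lower. Their median difference was 0.01, beside −0.15 over all genes. At least 2-fold higher were 6 of the 115, and at least 2-fold lower were 0, where 1287 (6.83%) and 251 of all 18856 genes were. With quantile normalization 40 were called higher and 15 lower, so that 72.7% of the calls were higher in place of 58.7%. Without WT replicate 1 the counts were 22 and 13, and without WT replicate 3 they were 23 and 12.

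**Figure D4:**
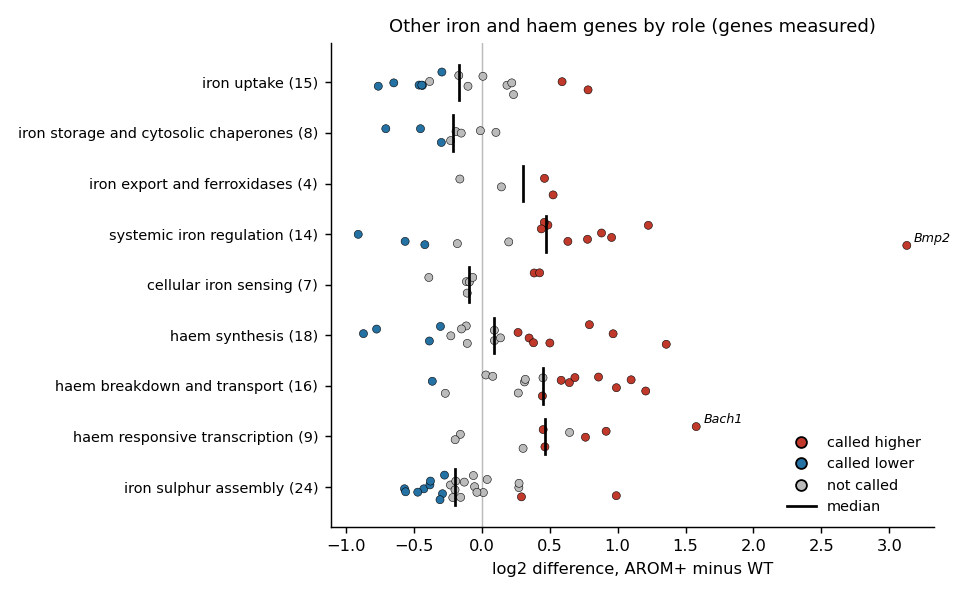
Log2 difference, AROM+ minus WT, of the 115 other iron and haem genes measured (points), by role, with the number measured in brackets; black lines are medians and the vertical scatter within a row has no meaning. Red points were called higher, blue points lower and grey points not called at an adjusted p under 0.05. Bmp2 and Bach1 are named, and Bmp2 stands apart at 3.13.

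Of 16 genes of haem breakdown and transport, 8 (50%) were called higher and 1 (6.25%) lower, against 19.8% and 32.7% of all genes. The median of the 16 was 0.45. Blvrb, a biliverdin reductase, acts downstream of haem oxygenase. It read 0.53, 1.00 and 0.24 in WT against 2.09, 1.62 and 1.67 in AROM+, and rose by 1.21 ± 0.22 (limma, adjusted p = 0.00649). Cd163, the macrophage receptor for haemoglobin bound to haptoglobin, rose by 1.10 ± 0.20 (adjusted p = 0.00616), but by 0.39 with normexp background correction. Lrp1, a receptor that takes up haem bound to haemopexin, rose by 0.99 ± 0.14, and Slc48a1, which carries haem out of the lysosome, by 0.86 ± 0.19 (adjusted p = 0.00391 and 0.0117). The haem exporter gene Flvcr1 rose by 0.58 ± 0.18 (adjusted p = 0.0343), a call lost with array weights and without any 1 array except AROM+ replicate 2. Hmox2, the constitutive haem oxygenase, fell by 0.36 ± 0.09 (adjusted p = 0.0146), where Hmox1 had a positive difference. That call was lost with quantile normalization (−0.15) and without WT replicate 1. Hpx, which encodes haemopexin, was not well above background in either group.

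Of 9 genes of haem-responsive transcription, 5 (55.6%) were called higher and 0 lower, against 19.8% and 32.7% of all genes. The median of the 9 was 0.47. Bach1 is a repressor of Hmox1 that leaves DNA when it binds haem. It read −3.69, −3.30 and −3.57 in WT against −1.75, −2.16 and −1.92 in AROM+, and rose by 1.58 ± 0.15 (limma, adjusted p = 0.00199). Nfe2l2, which encodes an activator of Hmox1, rose by 0.92 ± 0.14 (adjusted p = 0.00413). Maff, a small MAF partner of both, rose by 0.76 ± 0.19 (adjusted p = 0.0157), a call lost without WT replicate 1. Nr1d2, a nuclear receptor that binds haem, rose by 0.47 ± 0.12 (adjusted p = 0.0175), while its other probe, not called, was at 0.08. The Nr1d2 call was lost with the mean of its probes, without WT replicate 1 and without WT replicate 3.

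Haem synthesis genes changed both ways: of 18 measured, 7 (38.9%) were called higher and 4 (22.2%) lower, against 19.8% and 32.7% of all genes. The median of the 18 was 0.09. Cpox, coproporphyrinogen oxidase, rose by 0.97 ± 0.20 (limma, adjusted p = 0.00924). Tmem14c, a mitochondrial protein of porphyrin transport, rose by 0.79 ± 0.12, and the mitochondrial carrier gene Slc25a39 fell by 0.87 ± 0.14 (adjusted p = 0.00395 and 0.00497). The first enzyme of the pathway was at 0.09 ± 0.11 in its housekeeping form Alas1 and at −0.11 ± 0.15 in its erythroid form Alas2. Ferrochelatase, Fech, which inserts the iron, was at 0.14 ± 0.08. None of these 3 was called (adjusted p = 0.488, 0.546 and 0.187), though Fech was called with quantile normalization, at 0.29.

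Of 15 genes listed under iron uptake 2 (13.3%) were called higher and 6 (40%) lower, against 19.8% and 32.7% of all genes. The median of the 15 was −0.17. Slc11a2, the iron importer DMT1, rose by 0.78 ± 0.10 by its brightest probe (limma, adjusted p = 0.00322), but its other probe was at −0.20 and not called, and the mean of both was at 0.29. The other gene called higher, Sfxn1, is a mitochondrial carrier gene and so not one of uptake into the cell. It rose by 0.59 ± 0.10 (limma, adjusted p = 0.00523). Steap2, of the same family as Steap4, fell by 0.76 ± 0.17, and Cybrd1, a ferric reductase, by 0.65 ± 0.11 (adjusted p = 0.0122 and 0.00533). Tfr2, a relative of Tfrc, was at 0.22 ± 0.20 and not called (adjusted p = 0.366).

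Of 8 storage and chaperone genes 0 were called higher and 3 (37.5%) lower, against 19.8% and 32.7% of all genes. The median of the 8 was −0.21. Fthl17a, a ferritin-like gene, fell by 0.71 ± 0.15 and Ftmt, the mitochondrial ferritin, by 0.45 ± 0.09 (limma, adjusted p = 0.0091 and 0.00833). The Ftmt call was lost with quantile normalization (−0.23). Pcbp2, an iron chaperone, fell by 0.30 ± 0.07 (adjusted p = 0.016), with its other probe, not called, at −0.15. The Pcbp2 call was lost with quantile normalization (−0.07), with the mean of its probes, with the replicate number as a block, and without WT replicate 1 or 3. Ncoa4, which delivers ferritin to the lysosome, was at −0.23 ± 0.09 and not called (adjusted p = 0.0747), though it was called with an intensity trend in eBayes. Of 4 genes listed under iron export and ferroxidases 2 (50%) were called higher and 0 lower, against 19.8% and 32.7% of all genes. They were App, at 0.46 ± 0.10, and Cd59a, at 0.53 ± 0.16 (limma, adjusted p = 0.0109 and 0.0286). Their place in the list does not show that App or Cd59a exports or oxidises iron. The Cd59a call was lost without WT replicate 1 or 3 and without AROM+ replicate 1 or 2.

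Of 14 genes of systemic iron regulation 9 (64.3%) were called higher and 3 (21.4%) lower, against 19.8% and 32.7% of all genes. The median of the 14 was 0.47. Bmp2, a growth factor that induces hepcidin in the liver, read −6.29, −5.36 and −5.89 in WT against −1.81, −3.25 and −3.09 in AROM+, and rose by 3.13 ± 0.42 (limma, adjusted p = 0.0034). Its WT signal was dim, and with normexp background correction the Bmp2 difference was 2.28. Id1, a target of BMP signalling, rose by 1.23 ± 0.22 and Hfe, the haemochromatosis gene, by 0.78 ± 0.11 (adjusted p = 0.00651 and 0.00387). Bmp4 rose by 0.96 ± 0.26 (adjusted p = 0.0207), a call lost without WT replicate 1 and without WT replicate 3. Hjv, the BMP co-receptor haemojuvelin, fell by 0.91 ± 0.14 (adjusted p = 0.00412). Hamp, which encodes the hormone hepcidin, was not well above background in either group. BMP ligands and Id1 also act outside iron biology.

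Of 7 genes of cellular iron sensing 2 (28.6%) were called higher and 0 lower, against 19.8% and 32.7% of all genes. The median of the 7 was −0.09. The iron-regulatory protein genes Aco1 (−0.11 ± 0.11) and Ireb2 (−0.39 ± 0.16) were not called (limma, adjusted p = 0.424 and 0.0772), though Ireb2 was called with array weights, with a trend and without WT replicate 2. The called genes encode hypoxia factors: Hif1a rose by 0.43 ± 0.12 and Epas1 by 0.39 ± 0.08 (adjusted p = 0.0219 and 0.00978). The other probes of Epas1, not called, were at −0.13 and 0.01, and its call was lost with the mean of its probes (0.09). The Hif1a call was lost with normexp background correction and without any 1 WT array.

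Of 24 iron-sulphur cluster assembly genes 2 (8.33%) were called higher and 9 (37.5%) lower, against 19.8% and 32.7% of all genes. The median of the 24 was −0.19, beside −0.15 over all genes. Fdxr, ferredoxin reductase, which also serves steroid synthesis, rose by 0.99 ± 0.18 (limma, adjusted p = 0.00627). Nubpl, an assembly factor for respiratory complex I, fell by 0.56 ± 0.09 (adjusted p = 0.00537). Ciapin1 and Nubp2, of the cytosolic pathway, fell by 0.57 ± 0.14 and 0.47 ± 0.11 (adjusted p = 0.0165 and 0.0142). The Ciapin1 call was lost when WT replicate 1 or 3 was left out. The Nubp2 call was lost with quantile normalization (−0.23) and without WT replicate 1.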

How the data were processed

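The scanner files were deposited as output of Agilent Feature Extraction, whose version is 10.7.3.1 in the file headers and 10.10 in the submitters' processing notes. Their processed signal is an intensity with spatial detrending switched on, per the file headers. The authors also deposited log2 values. These fit log2 of the processed signal with a slope of 1.00 and 1 constant per array, their column medians ran from −3.12 to −3.02, and genes were not centred.

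Here the 75th percentile of each array was subtracted from log2 of its processed signal. Left out were 3671 control spots and 123 to 192 outlier spots per array. Spots of a probe were averaged. Dim probes were removed unless all 3 arrays of a group were well above background, leaving 42641. RefSeq's GRCm38.p6 table named 26155 probes by accession, 3756 by symbol and 623 by synonym. Another 703 listed several genes and 24444 matched none. Positions are those in the files (NCBI37/mm9).

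The fits used lmFit and eBayes of limma 3.58.1 (R 4.3.3) over all genes or all kept probes, with Benjamini-Hochberg adjustment, and "called" means an adjusted p under 0.05. The p-values measure the spread between these testes, and the number of arrays limits precision. On data simulated for this comparison over 18856 genes, 50 genes were changed at each of 0.5, 1, 2 and 4 (log2). Of those changed by 0.5, 22% were recovered, and of those changed by 1, 94%. The simulation gave 167 calls, where the arrays gave 3733 genes higher and 6163 lower. The adjustment depends on how many genes change, so both percentages apply to the simulated setting only.

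The members and lists were chosen with earlier results of these data known. The text names all members, up to 4 called genes per role by size (among those measured on all 6 arrays), and a fixed set of others; some items are not reported here. Cell markers other than Adgre1, Cd68, Hba-a1, Hbb-bs, Sox9, Amh and Cyp11a1 were named after their values were seen. Alternatives were normexp (offset 50), quantile normalization, scaling to bright probes' median, the deposited log2 values, no filter or a stricter one, averaging of probes, the replicate block, array weights, an intensity trend, and leaving out each array.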

Additional observations from a re-analysis of the deposited data

How the results depend on the processing

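Member differences were recomputed under 14 alternatives, and their signs held apart from Tfrc, which was at −0.01 with probes averaged, and its probe A_51_P167876, at 0.01 with quantile normalization and 0.09 without AROM+ replicate 1. Fth1 was not called in 8 of the 14 and Tfrc was called in none of them. Dim probes depended on the background: with normexp Heph A_52_P498219 was at 2.23. With probes averaged Heph was at 3.69, Trf at 1.25 and Ftl1 at 0.85, and with quantile normalization Trf was at 1.10. The filter requiring all 6 arrays left no value for Steap4. Leaving out each array, genes called higher ran from 2587 to 3539 and lower from 3810 to 5484, against 3733 and 6163. The other iron and haem genes called higher ran from 22 to 35 and lower from 12 to 23, and members called higher from 8 to 9. With quantile normalization 15 of the other iron and haem genes were called lower in place of 26, and of all genes 3913 were higher and 4284 lower, so that 47.7% of calls were higher in place of 37.7%. The cause was not tested. Same-numbered testes did not deviate together (r = 0.016, −0.24 and 0.0044 across genes), and 0 of 6 arrays had its own number as the closest array of the other group, so the numbers do not pair them. With the replicate block 3122 genes were called higher and 4632 lower, with 32 and 18 among the other iron and haem genes and 8 members higher.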
